A study of Mus musculus with 9 samples.

Results

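Lysosome and autophagy genes were examined in mouse CD4+ T cells stimulated through the T cell receptor with or without an antibody that binds CD40L. The members are 43 named genes for enzymes, membrane proteins and regulators of the lysosome and for the autophagosome, chosen by symbol, and all 43 had a row among the 25160 genes of the table. Naive CD4+ T cells were sorted from spleens of C57BL/6 mice and cultured on plates coated with an antibody against CD3e at 1 µg/ml, which engages the T cell receptor complex, together with a second antibody at 19 µg/ml. The 9 RNA sequencing libraries fell into 3 groups of 3. Wild-type cells were cultured with the antibody against CD40L (anti-CD40L), cells from the libraries labelled KO with the isotype antibody, and wild-type cells with the isotype antibody. The genotype label of the libraries labelled KO reads "cre", and the series describes their donors as mice lacking CD40L in T cells only. The promoter driving the recombinase, the age of the mice and the duration of culture were not given in these sources. All groups received anti-CD3e, so no unstimulated cells were compared. The labels do not say whether replicates are separate mice or cultures, and the p-values below measure the spread between libraries, which may be technical.

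CD40L is a surface protein of activated helper T cells that binds CD40 on antigen-presenting cells. Lysosomes are acidic organelles in which proteases, glycosidases, lipases and sulfatases break down material that arrives by endocytosis or, through autophagosomes, from the cytoplasm. The transcription factors TFEB and TFE3 activate many genes of these enzymes by binding E-box sequences in their promoters, and in T cells autophagy is engaged after receptor stimulation and sustains survival and metabolism.

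The libraries differed in depth, with totals of 5316482 to 15565711 counts. The anti-CD40L replicate 3 stood apart: it had the lowest total, 11673 genes with a count against 14290 to 17428 in the other 8 libraries, and a first principal component of 86.96 against -19.1 to 10.22. In the 2 comparisons with calls, the counts of members and of all other lists together are therefore also given without it. The summed level of 7 CD4 T cell markers was 4010 to 4160 CPM, counts scaled to library size, on anti-CD40L, 3890 to 4170 CPM in KO-labelled libraries and 3960 to 4400 CPM in isotype-treated wild type, and all 7 genes were detected in every library. Myeloid cells, which are rich in lysosomes, were looked for with 14 markers, whose summed level was 0 to 1.42 CPM on anti-CD40L, 2.27 to 12.0 CPM in KO-labelled libraries and 2.19 to 4.03 CPM in isotype-treated wild type. The value of 12.0 CPM belonged to replicate 1 of the libraries labelled KO, in which S100a8 was at 2.71 CPM and S100a9 at 4.66 CPM. The defining neutrophil marker Ly6g was at 0 in all 9 libraries, and Itgam alone of the 14 was expressed highly enough to be tested. The summed level of 8 B cell markers was 1.72 to 14.5 CPM on anti-CD40L, 7.39 to 18.1 CPM in KO-labelled libraries and 13.2 to 39.0 CPM in isotype-treated wild type. Between antibodies in wild type Itgam and the B cell gene Fcer2a fell (edgeR adjusted p of 0.0336 and 0.00176). Itgam had 6 counts in all on anti-CD40L, 58 in KO-labelled libraries and 51 in isotype-treated wild type, and Fcer2a had 20, 23 and 367. Itgam passed the expression filter through the isotype groups and Fcer2a through isotype-treated wild type, which limits both tests. The part of myeloid and B cells in the results below was not tested, and in such bulk samples fewer cells of a type and less RNA per cell cannot be told apart. Cd40lg itself was at 109, 132 and 163 CPM on anti-CD40L, 145, 136 and 150 CPM in KO-labelled libraries, and 142, 154 and 189 CPM in isotype-treated wild type. The gene level count therefore did not separate the libraries labelled KO from wild type (log2 fold change -0.17, standard error, SE, 0.13; Benjamini-Hochberg adjusted p = 0.935 in the quasi-likelihood test of edgeR), and the deleted stretch was not examined here.

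E-boxes of the sequence CACGTG, the core of the sites that TFEB and TFE3 bind, were counted in the RefSeq promoters (GRCm38.p6, 250 bases before to 50 bases after each start site). CACGTG reads the same on both strands. A promoter was found for 39 of the 43 members, and 11 of the 39 (28.2%) held the motif, against 2187 of 27025 genes (8.09%). The longer forms that contain it were GTCACGTG, searched on both strands and present in 8 members (20.5%, against 2.55% of all genes), and TCACGTGA, present in 4 members (10.3%, against 1.12%). The 11 members were the proteases Ctsa, Ctsd, Ctsl and Lgmn, the glycosidases Glb1, Gla and Gaa, the sulfatase Arsa, and the membrane proteins Lamp1, Mcoln1 and Mcoln2. The 250 bases upstream of the start site are shown for the 5 of them that changed in a comparison below, and for Lamp1, which holds 4 copies and whose level did not pass a test. Ctsa and Lgmn each have another start site in the table. The start sites of their windows shown here lie 872 and 721 bases downstream of the annotated start (GENCODE) of the transcript whose counts were used. The windows nearest to that start hold no CACGTG in either gene. For Mcoln2 and Ctsd, with 1 window each, the start site of the window lies 341 and 211 bases downstream of the start of the counted transcript. Distances of the motif below are from the start site of the window shown. Counting for each gene only the window nearest to the start of its counted transcript, which 38 members allowed, 9 held the motif (23.7%). The share of all genes was not counted in this way. Each sequence shown runs 5′ to 3′ on the gene's own strand with every CACGTG in capitals. The windows are chr2:164833523-164833772 on the plus strand for Ctsa, chr7:142387828-142388077 on the minus strand for Ctsd, chr12:102439093-102439342 on the minus strand for Lgmn, chr15:89477425-89477674 on the minus strand for Arsa, chr3:146149924-146150173 on the plus strand for Mcoln2 and chr8:13158911-13159160 on the plus strand for Lamp1.
Ctsa: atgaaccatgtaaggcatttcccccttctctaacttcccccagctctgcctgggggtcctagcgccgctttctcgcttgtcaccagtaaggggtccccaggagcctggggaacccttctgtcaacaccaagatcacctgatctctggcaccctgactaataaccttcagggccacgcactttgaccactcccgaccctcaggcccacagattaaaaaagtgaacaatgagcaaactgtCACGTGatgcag
Ctsd: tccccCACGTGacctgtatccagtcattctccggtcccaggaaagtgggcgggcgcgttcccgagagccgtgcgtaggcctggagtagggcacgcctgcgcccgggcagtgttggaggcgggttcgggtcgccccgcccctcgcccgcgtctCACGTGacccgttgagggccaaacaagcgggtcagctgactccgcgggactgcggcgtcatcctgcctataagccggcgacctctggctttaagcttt
Lgmn: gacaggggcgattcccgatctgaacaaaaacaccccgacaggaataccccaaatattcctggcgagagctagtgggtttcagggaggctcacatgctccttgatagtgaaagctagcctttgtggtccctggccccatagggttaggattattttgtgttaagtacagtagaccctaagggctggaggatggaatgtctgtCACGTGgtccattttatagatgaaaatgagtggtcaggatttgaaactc
Arsa: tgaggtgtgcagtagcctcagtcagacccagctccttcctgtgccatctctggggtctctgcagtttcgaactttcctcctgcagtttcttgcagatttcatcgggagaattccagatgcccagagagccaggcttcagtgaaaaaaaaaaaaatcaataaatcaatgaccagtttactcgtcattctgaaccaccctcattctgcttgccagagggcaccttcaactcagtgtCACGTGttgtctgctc
Mcoln2: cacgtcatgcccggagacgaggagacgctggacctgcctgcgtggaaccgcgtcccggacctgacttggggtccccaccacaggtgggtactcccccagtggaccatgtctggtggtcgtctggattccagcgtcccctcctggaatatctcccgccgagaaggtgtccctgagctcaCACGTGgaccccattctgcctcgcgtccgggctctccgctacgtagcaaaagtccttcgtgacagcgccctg
Lamp1: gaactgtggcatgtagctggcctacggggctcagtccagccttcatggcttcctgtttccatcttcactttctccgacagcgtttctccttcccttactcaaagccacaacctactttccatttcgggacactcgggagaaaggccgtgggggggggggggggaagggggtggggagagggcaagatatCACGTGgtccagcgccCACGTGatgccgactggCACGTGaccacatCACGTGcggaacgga
The capitals begin 12 bases before the start site in Ctsa, whose window holds another copy beyond the start site, 245 and 98 bases before it in Ctsd, 49 bases before it in Lgmn, 16 bases before it in Arsa and 72 bases before it in Mcoln2. Lamp1 has them 61, 45, 28 and 15 bases before its start site. A match is a description of the letters and not of binding.

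Levels are compared between genes only as CPM per kilobase of transcript. In wild-type isotype libraries the 5 highest members were Sqstm1, an autophagy receptor that carries ubiquitinated cargo (171.8 CPM per kilobase), Lamp1, an abundant glycoprotein of the lysosomal membrane (107.3), Gabarap, a protein of the ATG8 family that is attached to autophagosome membranes (106.6), the aspartic protease gene Ctsd (83.72), and Psap, the precursor of the saposins that help degrade sphingolipids (81.06). The lowest were Ctsh (0.3536) and the tetraspanin gene Cd63 (0.2429). These 2 had 12 and 1 counts in all on anti-CD40L, 24 and 10 in KO-labelled libraries and 17 and 8 in isotype-treated wild type. They did not pass the expression filter, which left 41 members among 11256 tested genes. Summed over all 43 members, the level was 2466 ± 146 CPM on anti-CD40L, 2591 ± 184 CPM in KO-labelled libraries and 2864 ± 77.9 CPM in isotype-treated wild type (SD, n = 3 each).

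The first comparison asked how engaging CD40L with the antibody changed these genes in wild-type cells. Of the 41 members tested, 9 fell on anti-CD40L and 1 rose, against 6.46% and 2.91% of all tested genes and 9.37% in either direction (quasi-likelihood test of edgeR, adjusted p below 0.05). The 9 that fell were the protease genes Ctsa, Ctsd, Ctss and Lgmn, the lipid and sulfate group genes Lipa, Psap, Arsa and Arsb, and the progranulin gene Grn. The 1 that rose was Gusb, which encodes beta-glucuronidase. The log2 fold change was below 0 in 30 members, against 51.8% of all tested genes, and 19 had an unadjusted p under 0.05, against 26.4%. Its median was -0.28 over the 41 members and -0.01 over all tested genes, and the members ranged between -2.70 and 0.44. In 20 members every anti-CD40L library lay below every wild-type isotype library and in 3 every one lay above, against 17.2% and 15.4% of all tested genes and 32.6% in either direction. Without anti-CD40L replicate 3, 10 members fell and 1 rose, against 8.62% of all tested genes in either direction. Of the 9, 8 were among the 10, Grn was not, and Man2b1 and Tfeb were added.

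**Figure D1:**
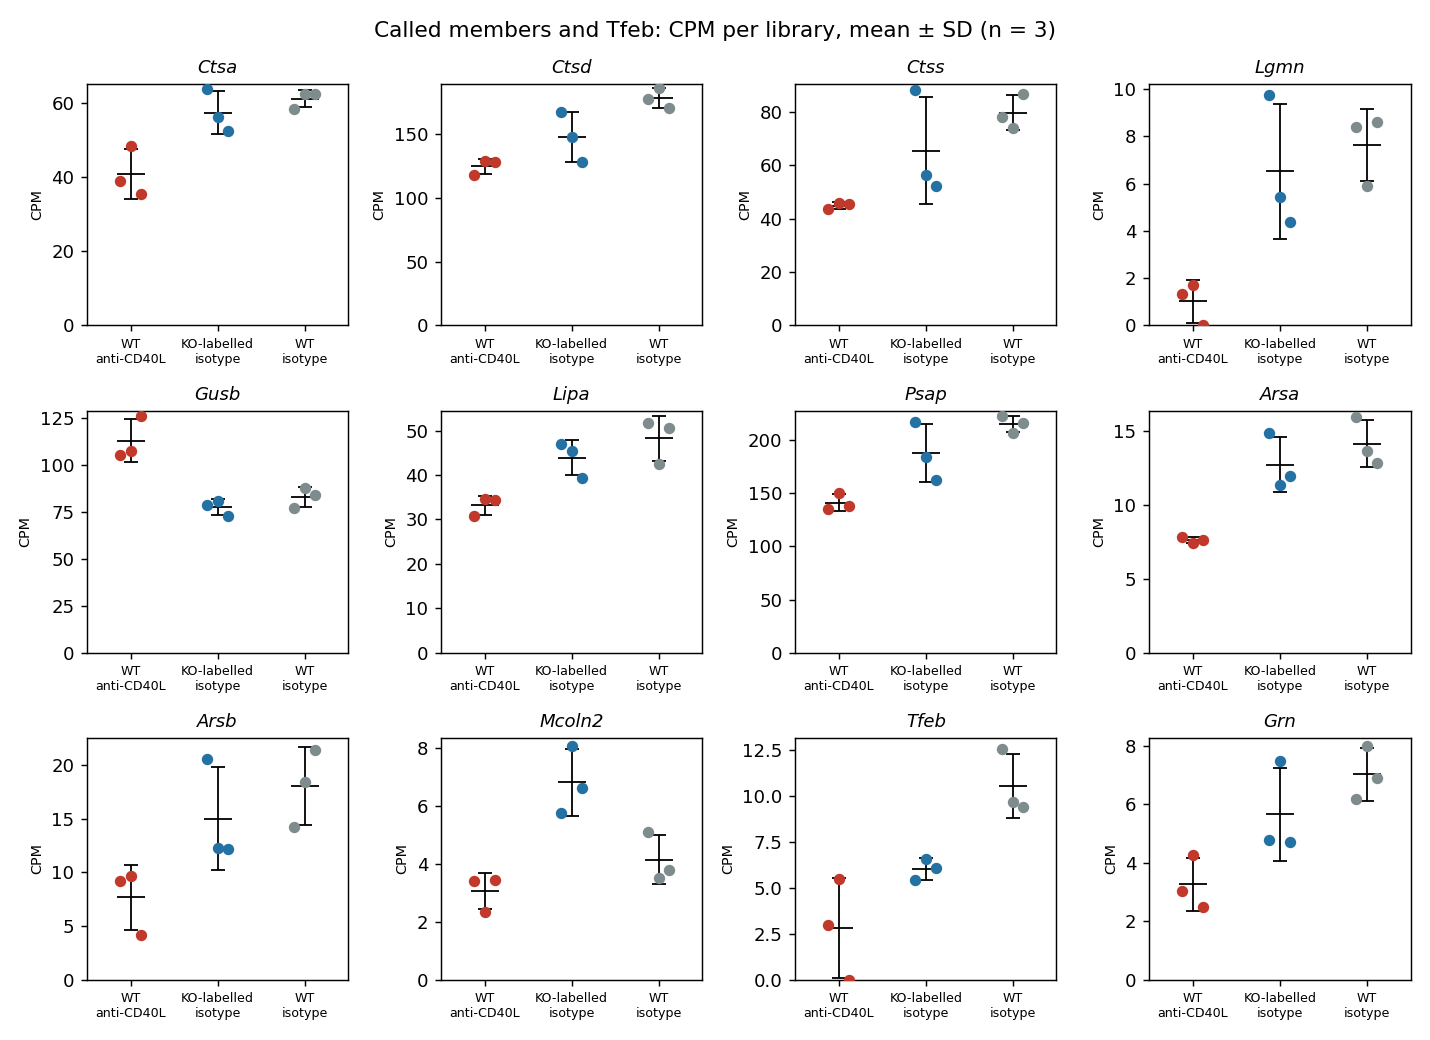
Level in CPM (y axis, linear, starting at 0) of the 11 members that passed the test in any comparison and of Tfeb, 1 panel a gene. Each point is 1 library, with anti-CD40L wild type at left, libraries labelled KO in the middle and wild-type isotype at right, and bars mark the mean ± SD (n = 3). Lgmn lies between 0 and 1.72 CPM on anti-CD40L and between 4.39 and 9.75 CPM in the other 6 libraries, while Gusb lies above both other groups.

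Among the proteases, 4 of 9 tested members fell on anti-CD40L, against 6.46% of all tested genes. Lgmn (NM_011175; chromosome 12, 102394082 to 102439728, GRCm38) encodes legumain, which cleaves after asparagine. It was at 1.34, 1.72 and 0 CPM on anti-CD40L, 9.75, 5.42 and 4.39 CPM in KO-labelled libraries, and 8.42, 5.89 and 8.60 CPM in isotype-treated wild type. The anti-CD40L libraries were all below the other 6. These levels rest on 32 counts in all on anti-CD40L, 233 in KO-labelled libraries and 231 in isotype-treated wild type, and the 0 in the shallowest library allows up to 0.573 CPM (3 counts, counting error only). The fit gave a 6.51-fold lower level on anti-CD40L than on isotype antibody in wild type (log2 fold change -2.70, SE 0.52; edgeR adjusted p = 0.0067). Without anti-CD40L replicate 3 the log2 fold change was -2.30 (edgeR adjusted p = 0.00498). Lgmn passed the expression filter through the isotype groups.

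Ctss (NM_001267695; chromosome 3, 95526786 to 95556405), the cathepsin S gene, whose enzyme trims the invariant chain in antigen-presenting cells, was at 43.4, 45.7 and 45.5 CPM on anti-CD40L, 88.2, 56.1 and 52.0 CPM in KO-labelled libraries, and 77.9, 74.0 and 86.7 CPM in isotype-treated wild type. The anti-CD40L libraries were below all others and the closest together, while replicate 1 of the libraries labelled KO, which also had the highest summed myeloid marker level, lay above all 8 other libraries. Its log2 fold change was -0.83 between antibodies in wild type (SE 0.17; edgeR adjusted p = 0.00854).

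Ctsd (NM_009983; chromosome 7, 142375910 to 142387827), the gene of the main aspartic protease of lysosomes, was at 118, 129 and 128 CPM on anti-CD40L, 167, 148 and 128 CPM in KO-labelled libraries, and 177, 186 and 171 CPM in isotype-treated wild type. Anti-CD40L and wild-type isotype libraries did not overlap (log2 fold change -0.51, SE 0.10; edgeR adjusted p = 0.00545). The libraries labelled KO were all below wild-type isotype and overlapped anti-CD40L, with replicate 3 inside the anti-CD40L range.

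Ctsa (NM_008906; chromosome 2, 164832872 to 164841032), which encodes a carboxypeptidase that also protects beta-galactosidase and neuraminidase, was at 38.9, 48.3 and 35.4 CPM on anti-CD40L, 63.7, 56.1 and 52.4 CPM in KO-labelled libraries, and 58.4, 62.5 and 62.4 CPM in isotype-treated wild type. All anti-CD40L libraries were below the other 6 (log2 fold change against wild-type isotype -0.57, SE 0.12; edgeR adjusted p = 0.0123). The call was lost without anti-CD40L replicate 1, at an edgeR adjusted p of 0.0554, and without wild-type isotype replicate 3. The span of Ctsa overlaps Neurl2 and Pltp. Pltp was at 1.60 ± 0.22 CPM on anti-CD40L, 3.02 ± 0.69 CPM in KO-labelled libraries and 3.47 ± 0.89 CPM in isotype-treated wild type (SD, n = 3 each), and the sources do not say whether counting used strand.

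The other 5 tested proteases did not pass the test between antibodies. Ctsb, a cysteine protease gene, was at 87.9, 107 and 120 CPM on anti-CD40L, 96.0, 94.8 and 84.2 CPM in KO-labelled libraries, and 110, 118 and 99.6 CPM in isotype-treated wild type, so the groups overlapped except that the libraries labelled KO were all below wild-type isotype. Ctsc, Ctsz and Tpp1 had log2 fold changes of -0.04, 0.13 and 0.08. Ctsl was at 2.87 to 7.71 CPM on anti-CD40L and 6.99 to 9.50 CPM in isotype-treated wild type (log2 fold change -0.72, SE 0.32; edgeR adjusted p = 0.173).

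Glycosidases remove sugars from glycoproteins and glycolipids. Of the 8 members 1 rose on anti-CD40L and none fell, against 2.91% and 6.46% of all tested genes. Gusb (NM_010368; chromosome 5, 129989011 to 130003049) was at 105, 108 and 126 CPM on anti-CD40L, 78.7, 80.7 and 72.7 CPM in KO-labelled libraries, and 77.1, 87.6 and 84.2 CPM in isotype-treated wild type. Every anti-CD40L library was above the other 6. Its log2 fold change between antibodies in wild type was 0.44 (SE 0.10; edgeR adjusted p = 0.0124), and the call was lost without wild-type isotype replicate 1, at an edgeR adjusted p of 0.0627. The other 7 glycosidase genes, Glb1, Gla, Gaa, Hexa, Neu1, Man2b1 and Manba, had log2 fold changes of -0.37 to 0.24, and the summed level of all 8 was 365 ± 38.0 CPM on anti-CD40L, 348 ± 26.5 CPM in KO-labelled libraries and 349 ± 11.2 CPM in isotype-treated wild type (SD, n = 3 each).

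Of the 9 genes for lipid and sulfate turnover, 4 fell on anti-CD40L, against 6.46% of all tested genes. Psap (NM_011179; chromosome 10, 60277628 to 60302600) was at 135, 150 and 138 CPM on anti-CD40L, 217, 184 and 163 CPM in KO-labelled libraries, and 223, 207 and 216 CPM in isotype-treated wild type. The anti-CD40L libraries were below all others, and replicate 1 of the libraries labelled KO reached the wild-type isotype range (log2 fold change between antibodies in wild type -0.61, SE 0.10; edgeR adjusted p = 0.00224).

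The sulfatase genes Arsa and Arsb were far less abundant. Arsa (NM_009713; chromosome 15, 89472476 to 89477424), whose enzyme desulfates sulfatide, was at 7.80, 7.40 and 7.64 CPM on anti-CD40L, 14.9, 11.4 and 12.0 CPM in KO-labelled libraries, and 16.0, 13.7 and 12.9 CPM in isotype-treated wild type. Arsb (NM_009712; chromosome 13, 93771679 to 93943016), whose enzyme acts on dermatan and chondroitin sulfate, was at 9.23, 9.64 and 4.20 CPM on anti-CD40L, 20.6, 12.3 and 12.2 CPM in KO-labelled libraries, and 14.3, 18.4 and 21.5 CPM in isotype-treated wild type. For both genes all 3 anti-CD40L libraries were below the other 6, and the lowest Arsb value belonged to anti-CD40L replicate 3. The log2 fold change between antibodies in wild type was -0.90 for Arsa (SE 0.19; edgeR adjusted p = 0.00982) and -1.17 for Arsb (SE 0.29; edgeR adjusted p = 0.0249). The Arsa call was lost without wild-type isotype replicate 1 (edgeR adjusted p = 0.0595), and the Arsb call without wild-type isotype replicate 2 or 3 (edgeR adjusted p up to 0.0985).

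Lipa (NM_021460; chromosome 19, 34492316 to 34527474), which encodes the acid lipase for cholesteryl esters and triglycerides, was at 30.7, 34.6 and 34.4 CPM on anti-CD40L, 46.9, 45.5 and 39.4 CPM in KO-labelled libraries, and 51.7, 42.5 and 50.7 CPM in isotype-treated wild type. The anti-CD40L libraries were again all below the other 6 (log2 fold change between antibodies in wild type -0.54, SE 0.12; edgeR adjusted p = 0.0141). That call was lost without anti-CD40L replicate 1 and without wild-type isotype replicate 1 or 3, with edgeR adjusted p up to 0.0797. Npc2, which encodes a soluble protein that hands cholesterol to the membrane protein made from Npc1, was at 191, 181 and 165 CPM on anti-CD40L, 181, 175 and 151 CPM in KO-labelled libraries, and 241, 204 and 208 CPM in isotype-treated wild type. Wild-type isotype libraries were above the other 6, but the log2 fold change between antibodies did not pass the test (-0.28, SE 0.10; edgeR adjusted p = 0.0836). The other 4 genes of this group, Npc1, Ppt1, Asah1 and Smpd1, had log2 fold changes of -0.16, 0.11, 0.11 and -0.39.

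**Figure D2:**
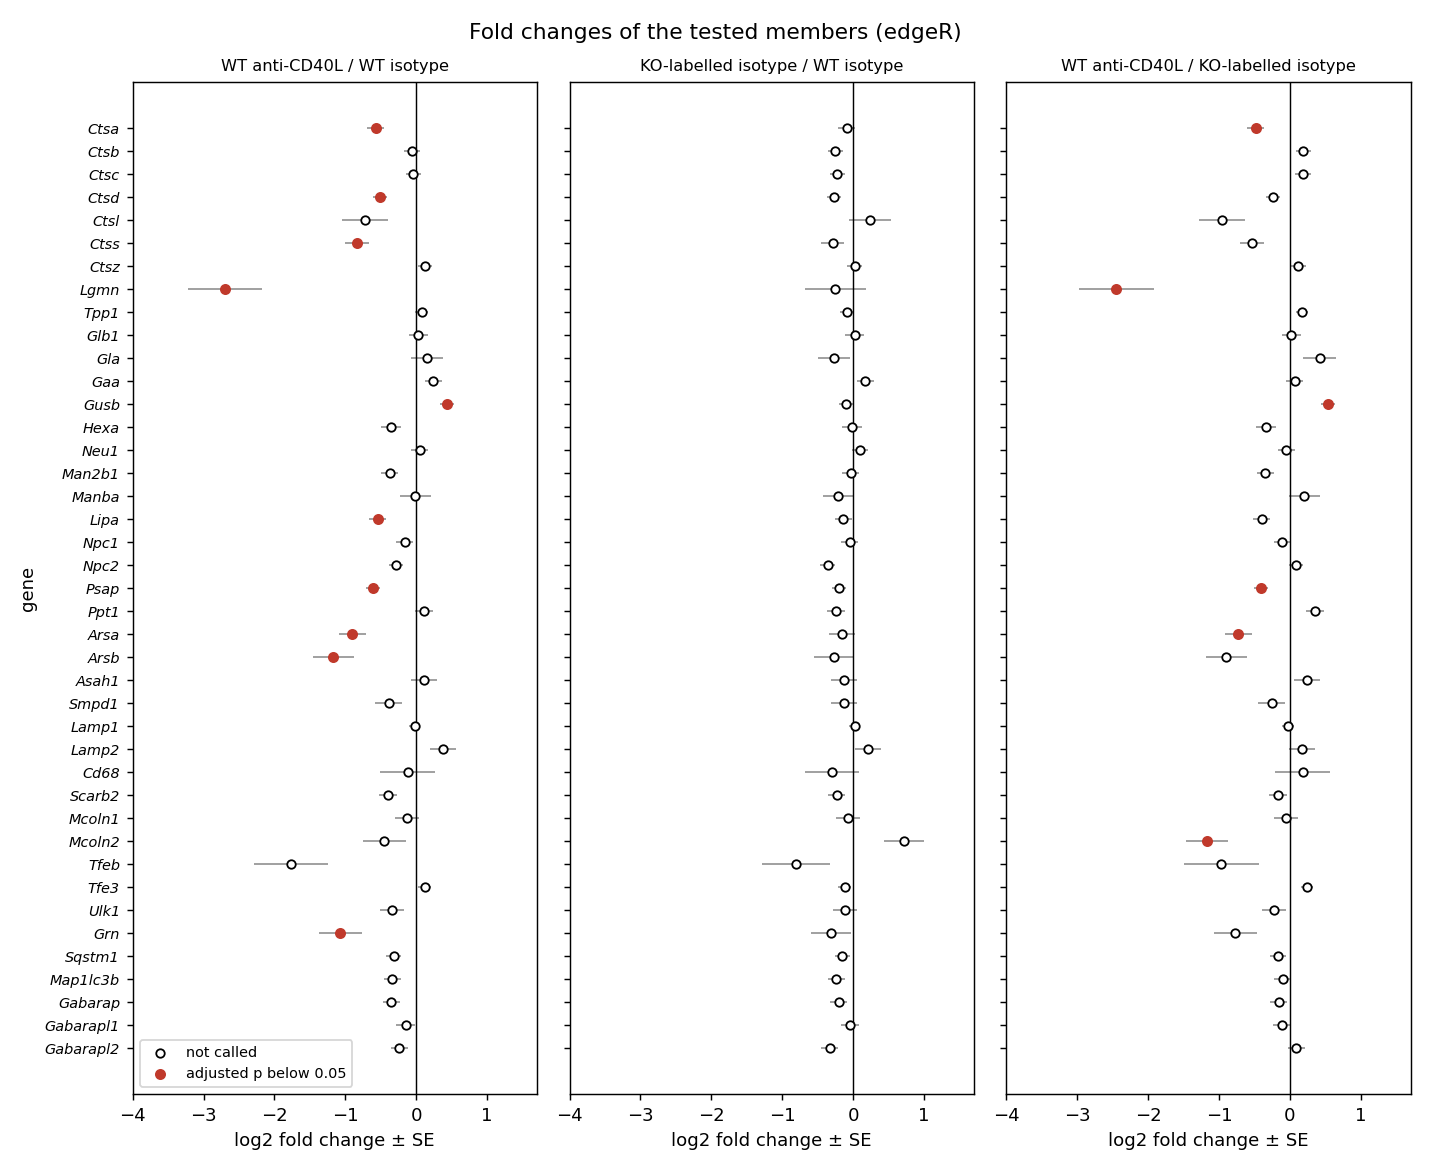
Log2 fold change with its standard error (x axis) for each of the 41 tested members (rows, ordered within their role), in the 3 comparisons, where negative values are lower in the group named first. The fold changes reach -2.70 for Lgmn between antibodies in wild type, and filled points mark members with an adjusted p below 0.05.

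None of the 6 tested lysosomal membrane genes passed the test between antibodies in wild type. Lamp1 was at 235, 225 and 250 CPM on anti-CD40L, 249, 224 and 253 CPM in KO-labelled libraries, and 235, 250 and 232 CPM in isotype-treated wild type, with all 3 groups overlapping (log2 fold change between antibodies -0.02, SE 0.08; edgeR adjusted p = 0.927). Scarb2, which encodes the receptor that brings glucocerebrosidase to lysosomes, averaged 43.3 ± 0.42 CPM on anti-CD40L and 57.3 ± 5.27 CPM in isotype-treated wild type (SD, n = 3 each; log2 fold change -0.40, SE 0.13; edgeR adjusted p = 0.0611). The channel gene Mcoln2 was at 3.41, 2.33 and 3.44 CPM on anti-CD40L, 5.74, 8.05 and 6.62 CPM in KO-labelled libraries, and 5.11, 3.52 and 3.79 CPM in isotype-treated wild type. Here the libraries labelled KO were the highest 3, and the log2 fold change between antibodies in wild type was -0.45 (SE 0.30; edgeR adjusted p = 0.365). Lamp2, Cd68 and Mcoln1 had log2 fold changes of 0.38, -0.12 and -0.13, and Cd68, a glycoprotein gene typical of macrophages, lay between 2.06 and 6.11 CPM in all 9 libraries.

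Among the 4 regulators, Grn fell. Grn (NM_008175; chromosome 11, 102430507 to 102436809) encodes progranulin, a secreted protein that is delivered to lysosomes and cut into granulins there. It was at 3.05, 4.26 and 2.48 CPM on anti-CD40L, 4.77, 7.47 and 4.71 CPM in KO-labelled libraries, and 6.18, 7.98 and 6.88 CPM in isotype-treated wild type, without overlap between the antibodies (log2 fold change -1.07, SE 0.30; edgeR adjusted p = 0.0407). This call was lost in 9 of 18 alternatives, including the omission of anti-CD40L replicate 1 or 3, of any wild-type isotype library or of replicate 2 of the libraries labelled KO, with adjusted p up to 0.147 (edgeR or limma-voom).

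Tfeb (NM_001161722; chromosome 17, 47737037 to 47792416) was at 2.96, 5.48 and 0 CPM on anti-CD40L, 5.42, 6.59 and 6.11 CPM in KO-labelled libraries, and 12.5, 9.69 and 9.41 CPM in isotype-treated wild type. All wild-type isotype libraries were above the other 6. These levels rest on 87 counts in all on anti-CD40L, 236 in KO-labelled libraries and 324 in isotype-treated wild type. In the fit of all 9 libraries Tfeb passed the expression filter through the isotype groups. The 0 again belonged to anti-CD40L replicate 3, and the difference between antibodies did not pass the threshold (log2 fold change -1.77, SE 0.52; edgeR adjusted p = 0.0503). Without that library it did pass it, at a log2 fold change of -1.33 (edgeR adjusted p = 0.0111), and over the 18 alternatives 7 passed, with adjusted p between 4.79e-07 and 0.161 (edgeR, DESeq2 or limma-voom). Tfe3 was far more abundant than Tfeb, at 22.35 CPM per kilobase in isotype-treated wild type against 4.503.

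Tfe3 was at 74.5, 87.9 and 85.4 CPM on anti-CD40L, 71.0, 68.4 and 69.7 CPM in KO-labelled libraries, and 76.7, 71.3 and 79.4 CPM in isotype-treated wild type, and the antibodies overlapped (log2 fold change 0.12, SE 0.09; edgeR adjusted p = 0.419). Ulk1, which encodes the kinase that starts autophagosome formation, was at 38.5, 43.3 and 24.5 CPM on anti-CD40L, 41.3, 39.7 and 45.4 CPM in KO-labelled libraries, and 51.3, 44.4 and 41.0 CPM in isotype-treated wild type. Its groups overlapped as well, with the lowest value in anti-CD40L replicate 3 (log2 fold change -0.34, SE 0.17; edgeR adjusted p = 0.221).

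The 5 autophagosome genes all had negative log2 fold changes on anti-CD40L, between -0.35 and -0.15, and none passed the test. Sqstm1 was at 245, 301 and 299 CPM on anti-CD40L, 353, 312 and 283 CPM in KO-labelled libraries, and 319, 397 and 335 CPM in isotype-treated wild type. Gabarap was at 94.7, 127 and 117 CPM on anti-CD40L, 135, 123 and 120 CPM in KO-labelled libraries, and 135, 165 and 131 CPM in isotype-treated wild type. In both genes the anti-CD40L libraries were below wild-type isotype without overlap, and the libraries labelled KO overlapped both groups.

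Map1lc3b, which encodes LC3B, the usual marker of autophagosomes, was at 68.7, 90.1 and 96.1 CPM on anti-CD40L, 100, 92.1 and 79.5 CPM in KO-labelled libraries, and 101, 112 and 108 CPM in isotype-treated wild type. Gabarapl1 was at 35.2, 33.4 and 27.5 CPM on anti-CD40L, 36.1, 30.7 and 37.4 CPM in KO-labelled libraries, and 31.5, 36.8 and 38.9 CPM in isotype-treated wild type. Gabarapl2 was at 41.6, 45.8 and 47.8 CPM on anti-CD40L, 48.0, 41.1 and 37.9 CPM in KO-labelled libraries, and 48.0, 55.2 and 55.9 CPM in isotype-treated wild type. Wild-type isotype libraries were above the other 6 for Map1lc3b and above anti-CD40L for Gabarapl2, and the groups overlapped for Gabarapl1. Adjusted p between antibodies was 0.0954 for Sqstm1, 0.0785 for Gabarap, 0.104 for Map1lc3b, 0.526 for Gabarapl1 and 0.219 for Gabarapl2 (edgeR quasi-likelihood test).

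**Figure D3:**
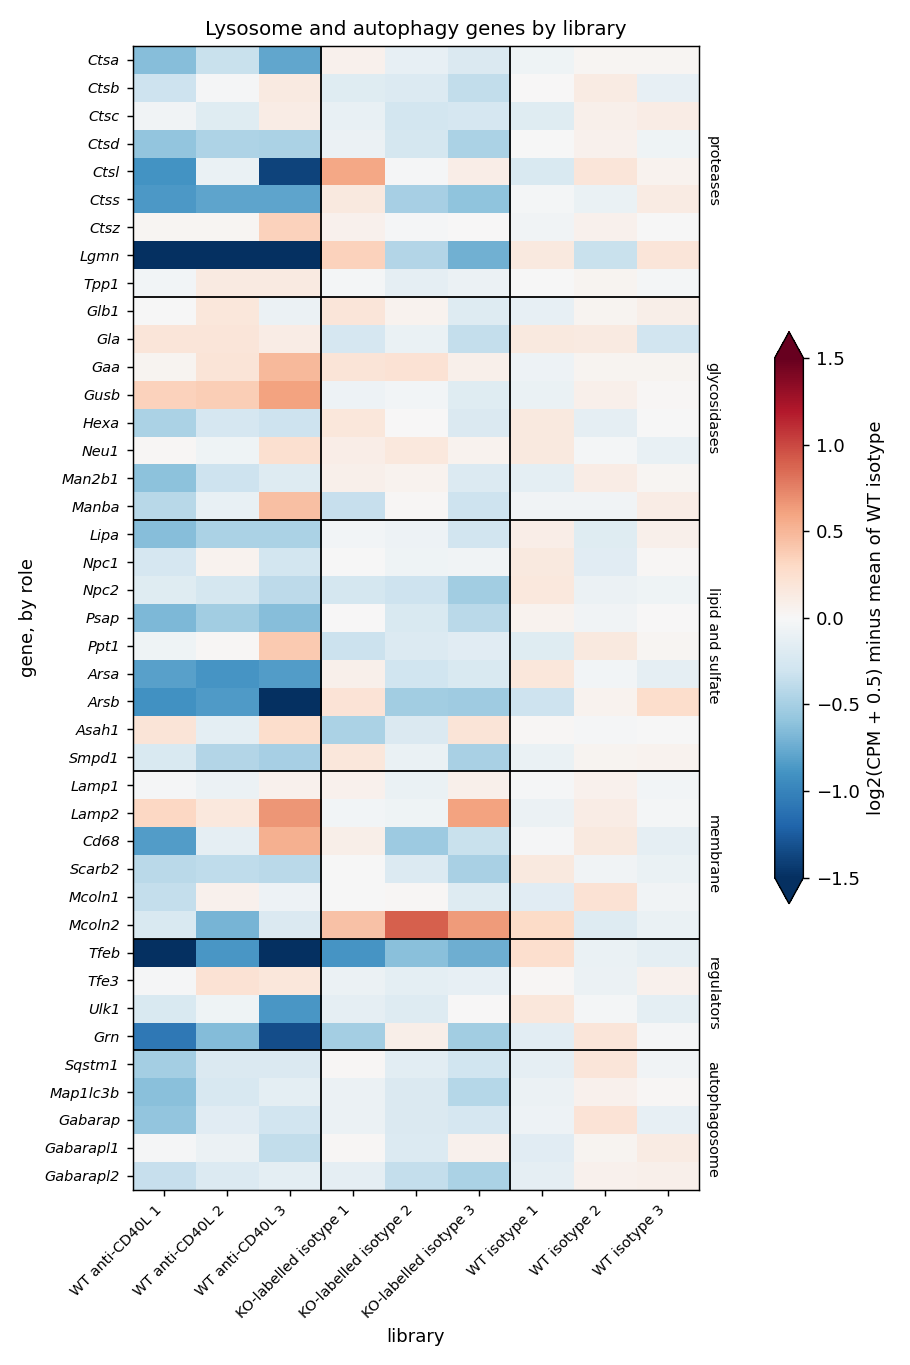
Log2(CPM + 0.5) of each of the 41 tested members minus its mean over the 3 wild-type isotype libraries (colour, with the scale ending at 1.5 on either side), with 1 row a gene grouped by role and 1 column a library, anti-CD40L at left, libraries labelled KO in the middle and wild-type isotype at right. Lgmn and Tfeb are lowest in anti-CD40L replicate 3, where both had 0 counts, and Gusb is higher in all 3 anti-CD40L columns.

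The second comparison set libraries labelled KO against wild type, both on isotype antibody. No member and no other gene passed the test (0.0% of all tested genes; edgeR quasi-likelihood test with Benjamini-Hochberg adjustment), while 5 of 41 members had an unadjusted p under 0.05, against 5.77% of all tested genes. DESeq2 called 39 genes and none of the members. The log2 fold change was below 0 in 33 of the 41 members, against 49.4% of all tested genes, and its median was -0.14 over the members, against 0.0. In 7 members every library labelled KO lay below every wild-type isotype library and in 2 above, against 7.62% and 7.61% of all tested genes and 15.2% in either direction.

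The 5 members of smallest p were Npc2, with a log2 fold change of -0.36 (SE 0.10), Ctsd with -0.27 (SE 0.10), Gabarapl2 with -0.33 (SE 0.12), Mcoln2 with 0.72 (SE 0.28) and Ctsb with -0.25 (SE 0.11). Their adjusted p lay between 0.472 and 0.842 (edgeR quasi-likelihood test). Every library labelled KO was below every wild-type isotype library for Npc2, Ctsd and Ctsb, and above for Mcoln2. For Gabarapl2 the highest library labelled KO and the lowest wild-type isotype library were nearly equal, at 48.01 and 48.03 CPM. Npc2 passed the threshold only when the expression filter was left out (edgeR adjusted p = 0.043). Tfeb had a log2 fold change of -0.80 (SE 0.48; edgeR adjusted p = 0.902), with 6.04 ± 0.59 CPM in KO-labelled libraries and 10.6 ± 1.74 CPM in isotype-treated wild type (SD, n = 3 each).

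The third comparison set wild-type cells on anti-CD40L against libraries labelled KO on isotype antibody. Of 41 members, 5 fell on anti-CD40L and 1 rose, against 5.04% and 1.79% of all tested genes and 6.83% in either direction (edgeR quasi-likelihood test). The 5 were Ctsa, Lgmn, Psap, Arsa and Mcoln2, and the 1 was Gusb. The log2 fold change was below 0 in 25 members, against 51.4% of all tested genes, and 16 had an unadjusted p under 0.05, against 22.2%. Its median was -0.11 over the members and -0.01 over all tested genes. In 11 members every anti-CD40L library was below every library labelled KO and in 4 above, against 15.9% and 10.3% of all tested genes and 26.2% in either direction. This comparison shares the anti-CD40L libraries with the first and the libraries labelled KO with the second.

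Gusb had the smallest adjusted p of the members here, with a log2 fold change of 0.54 (SE 0.10; edgeR adjusted p = 0.00376), and it passed in all 18 alternatives. Lgmn had a log2 fold change of -2.45 (SE 0.53; edgeR adjusted p = 0.0129), Psap of -0.41 (SE 0.10; edgeR adjusted p = 0.025) and Ctsa of -0.48 (SE 0.12; edgeR adjusted p = 0.0337). Arsa had -0.73 (SE 0.19; edgeR adjusted p = 0.0305) and Mcoln2 had -1.17 (SE 0.29; edgeR adjusted p = 0.0291). Mcoln2 was the member whose libraries labelled KO lay above all others. For these 5 genes the groups did not overlap. Replicate 1 of the libraries labelled KO had the highest level in its group for Lgmn, Psap, Ctsa and Arsa and also the highest summed myeloid marker level of all libraries. Without it 447 of all tested genes passed (3.88%), against 769 (6.83%) with all libraries. Without replicate 2 of the libraries labelled KO 346 passed (3.03%), so calls were lost across all genes in both cases. Without replicate 1 of the libraries labelled KO none of the 5 passed the test and Gusb did, with an edgeR adjusted p of 0.0533 for Lgmn and 0.118 for Psap. Without anti-CD40L replicate 3, Lgmn, Arsa and Mcoln2 fell and Gusb rose, against 6.07% of all tested genes in either direction.

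The omission of other libraries also ended calls of this comparison. Without replicate 2 of the libraries labelled KO, or without anti-CD40L replicate 1, Psap, Ctsa, Arsa and Mcoln2 did not pass. Arsa and Mcoln2 did not pass without anti-CD40L replicate 2, and the same 4 did not pass without wild-type isotype replicate 3, a library of neither group. Mcoln2 did not pass without replicate 3 of the libraries labelled KO, nor Ctsa without wild-type isotype replicate 1 or 2. In a fit of these 2 groups alone 0 members fell and Gusb still rose.

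The genes that fell against wild-type isotype but did not pass here were Ctsd (log2 fold change -0.24), Ctss (-0.54), Lipa (-0.40), Arsb (-0.90) and Grn (-0.77), with adjusted p of 0.0626 to 0.161 (edgeR quasi-likelihood test).

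With the promoters set beside the fold changes, the 11 members with CACGTG in any of their windows included 4 that fell on anti-CD40L in wild type (Ctsa, Ctsd, Lgmn and Arsa) and none that rose, with a median log2 fold change of -0.45. The 27 tested members whose promoters did not hold it included 5 that fell (Ctss, Lipa, Psap, Arsb and Grn) and Gusb, which rose, with a median of -0.32. Against libraries labelled KO, 4 of the 11 fell (Ctsa, Lgmn, Arsa and Mcoln2), and 1 of the 27 fell and 1 rose. In the windows nearest to the start of the counted transcript, 2 of the 9 members that held it fell on anti-CD40L in wild type (Ctsd and Arsa), with a median log2 fold change of -0.13, and 7 of 28 tested members without it fell, with a median of -0.33. The order of these medians thus turned with the choice of window. Against libraries labelled KO the same windows gave 2 of 9 (Arsa and Mcoln2) and 3 of 28 that fell. Lamp1, with 4 copies, and Mcoln1, which holds the motif as well, had log2 fold changes of -0.02 and -0.13 between antibodies in wild type.

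Other genes of the pathway were examined in 9 lists of 184 genes, of which 172 were tested. Between antibodies in wild type 14 fell and 4 rose, near the 6.46% and 2.91% of all tested genes. The median log2 fold change of the 172 was -0.13, against -0.01 over all tested genes. None passed in KO-labelled libraries against wild type, and 9 fell and 3 rose on anti-CD40L against libraries labelled KO, near the 5.04% and 1.79% of all tested genes. Without anti-CD40L replicate 3, 17 fell and 1 rose between antibodies in wild type, 12 of the 14 genes among the 17. Of all tested genes 8.62% passed in that fit, in either direction. Atg5, Fnip1, Vps35 and Foxo1 were among the genes that did not pass without that library. Against libraries labelled KO, 9 fell and 3 rose without it, 7 of the earlier 9 among those that fell, while 6.07% of all tested genes passed. Without replicate 1 of the libraries labelled KO, 11 fell and 5 rose between antibodies in wild type, Ulk2, Atg9a and Foxo1 not among them. In that comparison 1155 of all tested genes passed in either direction, against 1055 (9.37%) with all libraries. On anti-CD40L against the remaining libraries labelled KO, 5 fell and 1 rose, while 447 of all tested genes (3.88%) passed in either direction.

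Among 17 tested subunits of the vacuolar ATPase, the pump that acidifies lysosomes, 2 fell on anti-CD40L in wild type and none rose. The shares of all tested genes were 6.46% and 2.91%. Atp6v1d averaged 61.3 ± 4.53 CPM on anti-CD40L and 104 ± 2.60 CPM in isotype-treated wild type (SD, n = 3 each; log2 fold change -0.77, SE 0.09; edgeR adjusted p = 0.000217). Atp6v0d1 averaged 23.0 ± 6.45 CPM on anti-CD40L and 40.7 ± 2.07 CPM in isotype-treated wild type (log2 fold change -0.80, SE 0.17; edgeR adjusted p = 0.0122). Both also fell against libraries labelled KO. There the Atp6v0d1 call was lost without anti-CD40L replicate 3 and without replicate 1 of the libraries labelled KO. Atp6v1d kept its call in both cases.

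Of 25 further lysosomal enzyme and activator genes, 4 fell between antibodies and none rose, against 6.46% and 2.91% of all tested genes. Acp5, the tartrate-resistant acid phosphatase gene, averaged 14.0 ± 1.74 CPM on anti-CD40L, 39.3 ± 6.53 CPM in KO-labelled libraries and 39.3 ± 7.68 CPM in isotype-treated wild type (SD, n = 3 each; log2 fold change between antibodies in wild type -1.51, SE 0.18; edgeR adjusted p = 0.000291). Gm2a, the activator of ganglioside breakdown, had a log2 fold change of -1.04 (SE 0.21; edgeR adjusted p = 0.00796). Of 23 further membrane genes 2 fell and none rose, the 2-pore channel gene Tpcn1 (log2 fold change -0.78) and the peptide transporter gene Abcb9 (-1.15), with adjusted p of 0.00238 and 0.00735 (edgeR quasi-likelihood test).

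Among 30 tested genes of autophagosome formation 1 rose and 2 fell between antibodies in wild type, near the 2.91% and 6.46% of all tested genes. Atg5, needed to attach LC3 to membranes, averaged 67.9 ± 3.52 CPM on anti-CD40L and 53.8 ± 4.14 CPM in isotype-treated wild type (SD, n = 3 each; log2 fold change 0.34; edgeR adjusted p = 0.0476). Atg9a, a lipid scramblase of the forming membrane, and the kinase gene Ulk2 had log2 fold changes of -0.71 and -0.60 (edgeR adjusted p of 0.0403 and 0.0482). Of 8 autophagy receptors 1 fell, Calcoco1 (log2 fold change -1.03, SE 0.14; edgeR adjusted p = 0.000488).

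Of 27 genes for mTORC1 control at the lysosome, 1 rose and 1 fell, against 2.91% and 6.46% of all tested genes. They were Fnip1 (log2 fold change 0.61; edgeR adjusted p = 0.0332) and Sesn1, a leucine sensor gene (-1.06; edgeR adjusted p = 0.000291). Of 28 delivery genes 1 rose, the retromer subunit gene Vps35 (0.47; edgeR adjusted p = 0.0413), and none of 5 tested protease inhibitor genes passed. Of 9 further regulators Bhlhe40, which encodes an E-box-binding repressor, rose to 127 ± 16.6 CPM on anti-CD40L, against 57.9 ± 10.9 CPM in isotype-treated wild type (SD, n = 3 each; log2 fold change 1.13, SE 0.14; edgeR adjusted p = 0.000322). The forkhead factor genes Foxo1 and Foxo4 fell (log2 fold changes -0.33 and -0.78; edgeR adjusted p of 0.041 and 0.0224).

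**Figure D4:**
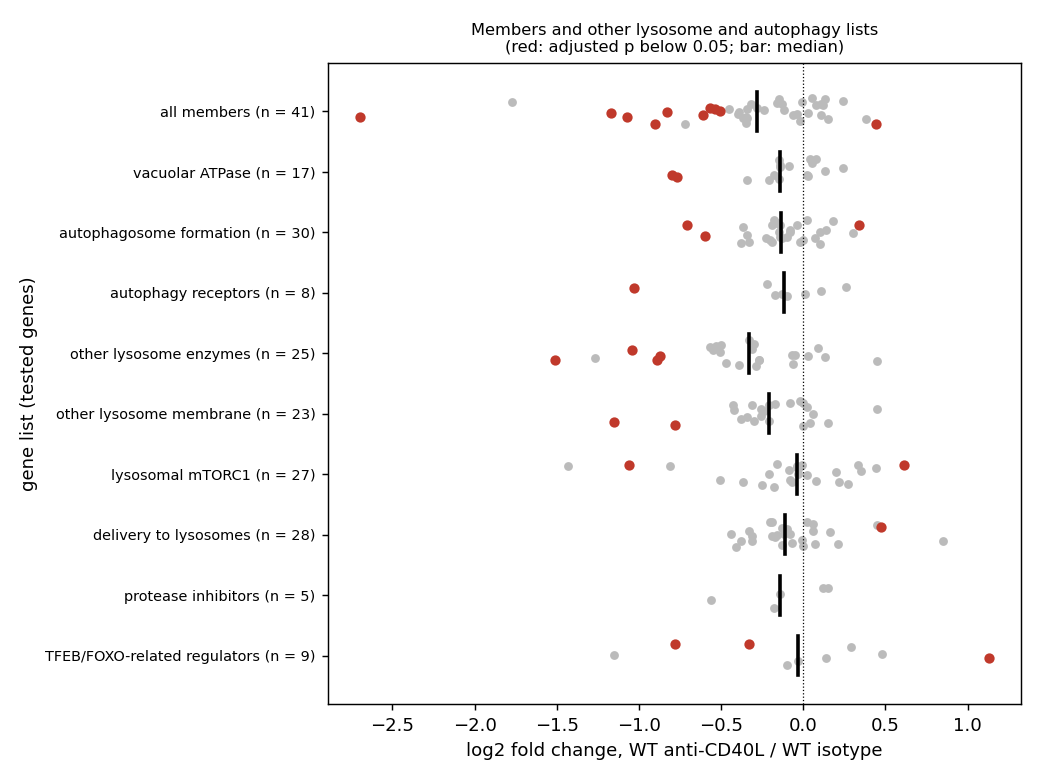
Log2 fold change (x axis) between antibodies in wild type, anti-CD40L over isotype, for the tested members and for 9 other lists of lysosome and autophagy genes (rows), with 1 point a gene, red where the adjusted p was below 0.05, and a bar at the median. The median is -0.28 for the 41 members and the lowest point is Lgmn at -2.70.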

How the data were processed

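The authors deposited 1 table of expected counts, not normalized, for 42361 RefSeq transcripts in 9 libraries; all values were multiples of 0.5. The submitters' processing notes name CASAVA 1.8.2, HISAT2 2.1.0 and mm10. How reads were counted, whether by strand and what was done with reads aligning to several places was not stated in the labels, so overlapping genes and near-identical copies are uncertain.

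For each gene the transcript of highest total was kept and rounded to whole counts, with 0.5 rounded up, which left 25160 genes and totals of 5316482 to 15565711. This test had been planned for whole counts. The expression filter of edgeR 4.0.16 left 11256 genes, libraries were scaled by TMM, and the robust quasi-likelihood F test was fitted in R 4.3.3 to all 9 libraries with 1 term per group. Benjamini-Hochberg adjustment ran over all tested genes at a threshold of 0.05, and the common biological coefficient of variation was 0.127. CPM values use TMM-scaled library sizes. The script was tested on simulated data.

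Alternatives were other scalings, no filter, DESeq2 1.42.0, limma-voom (limma 3.58.1) with and without quality weights, a replicate block, fits of 2 groups only, mean counts over transcripts, and the omission of each library. The effect of omitting anti-CD40L replicate 3 or replicate 1 of the libraries labelled KO on the other lists, and the promoter count in the window nearest to the counted transcript, were added after seeing the data. The members, lists and markers were chosen with earlier results of these data known. Members called in any comparison, the 5 of smallest p where none was called, the 5 of highest level per kilobase, the ATG8 family, Sqstm1, Tfeb, Tfe3 and Ulk1 are given library by library, and up to 3 genes of smallest p per direction are named from each other list. Some genes that this rule covers are not reported here. Transcript lengths and starts came from GENCODE vM21, and promoters and the coordinates, which are gene spans, from RefSeq GRCm38.p6 and GENCODE.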

Additional observations from a re-analysis of the deposited data

How the results depend on the processing

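Of 1188 values of single named members under the alternatives, 1114 kept their side of the threshold, 50 lost and 24 gained the call, and none of those called in either fit changed sign; the cause of each was not tested. The sign changed in 14 values of members that were not called and lay near 0 (Ctsb, Lamp1, Map1lc3b and Gabarapl1, log2 fold changes of -0.19 to 0.06). Between antibodies in wild type, 1055 genes passed, against 1698 without the expression filter and 1625 with DESeq2, and 486 to 1342 with 1 library left out. Members that fell numbered 9, against 15 without the filter (2 rose), and 5 to 12 with 1 library left out (0 or 1 rose). For libraries labelled KO against wild type, 0 genes passed, against 102 without the filter, 39 with DESeq2, 38 with limma-voom quality weights, 3 in the fit of 2 groups only and 0 to 2 with 1 library left out; 1 member passed without the filter, and 0 with 1 library left out. On anti-CD40L against libraries labelled KO, 769 genes passed, against 1305 without the filter, 1219 with DESeq2, 1458 with quality weights, 481 in the fit of 2 groups only and 346 to 1022 with 1 library left out. Members that fell there numbered 5, against 10 without the filter, 9 with DESeq2, 3 with limma-voom, 8 with quality weights, 0 in the fit of 2 groups only and 0 to 8 with 1 library left out, while 1 rose throughout the omissions. With the replicate block, 954, 0 and 664 genes passed in the 3 comparisons, with 9 members lower and 1 higher in the first and 4 lower and 1 higher in the third, where Mcoln2 lost its call; deviations correlated at -0.149 to 0.18 between libraries of the same number and at -0.106 to 0.178 otherwise. Between the 2 wild-type groups the same-numbered pairs were at 0.0783 to 0.18 and the others at -0.106 to 0.0129. Deviations from a group mean cancel within the group, so higher values in some pairs push the others down. The 2 ranges are therefore tied to each other, and they give no more than a hint. The labels do not say what the numbers share, and not every pair was over 0.1. In anti-CD40L replicate 3, where 3 counts are worth 0.573 CPM, Lgmn and Tfeb had 0 counts; the cause was not tested.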
